A study of Mus musculus with 2 samples.

Results

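Periportal hepatocyte barcodes are the droplet barcodes of mouse liver that carried at least 3 UMIs (unique molecular identifiers, each standing for 1 captured transcript) summed over Sds, Hal, Gls2, Cyp2f2 and Hsd17b13, and 0 UMIs over the pericentral genes Glul, Slc1a2, Lgr5, Axin2 and Rhbg. They were taken from hepatocyte barcodes, defined as those with at least 200 genes, at most 25% mitochondrial UMIs and 0 UMIs over Ptprc, Ptprb and Dcn. This gate held 1180 of 5439 hepatocyte barcodes, out of 5843 barcodes in all, and the other 4259 hepatocyte barcodes are called the rest. The members were chosen by the measured UMIs of these genes, so the levels of the gate genes describe the choice and are not a result.

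Livers of wild-type C57BL/6J mice were used for both libraries, after infection with an adeno-associated virus (AAV) at 4 weeks of age. The library labelled shBicd2 came from mice given AAV-shBicd2, directed at Bicd2, an adaptor of the dynein motor. The library labelled scramble came from mice given AAV-scramble. After 3 weeks both groups were given 15 mg/kg of concanavalin A by vein, a plant lectin known to cause liver injury through T cells, and livers were taken 6 hours later. No library without virus or without concanavalin A was analysed here. The promoter of the hairpin, the cells it reaches, the number of mice behind a library and the vector that carries EGFP are not given in the sources used here.

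Liver lobules are zoned along the flow of blood. Hepatocytes near the portal vein are known for gluconeogenesis, urea synthesis and the breakdown of amino acids, whereas those near the central vein, under Wnt signalling, are known for glutamine synthesis and drug-oxidising cytochromes. Between them lie midlobular hepatocytes, known in mice for Hamp and Cyp8b1.

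The library labelled shBicd2 held 3038 barcodes with 5624055 UMIs and the library labelled scramble held 2805 barcodes with 5086306 UMIs, and no barcode had under 500 UMIs. They shared 3 barcode sequences, none of them in the gate of both. With 1 library in each group, differences have no replicate check and were not tested, and every interval is a 95% interval that covers counting error only. Bicd2 lies on GRCm38 chromosome 13, 49341585 to 49387026, plus strand. It had 21 UMIs, or 16.6 CPM (UMIs scaled to 1000000 UMIs of the barcode class), in gate barcodes labelled shBicd2. In gate barcodes labelled scramble it had 22 UMIs, or 17.7 CPM. Counts this low in the gate cannot show whether Bicd2 was lower there under its hairpin label. Directions between libraries therefore compare the libraries as labelled and not a measured loss of Bicd2.

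Of hepatocyte barcodes, 547 of 2838 met the gate in the library labelled shBicd2, or 19.3% (exact binomial interval 17.8% to 20.8%), and 633 of 2601 in the library labelled scramble, or 24.3% (22.7% to 26.0%). The order of the libraries turned when Sds was left out of the gate, at 9.83% in shBicd2 and 4.998% in scramble, and when UMIs from at least 2 gate genes were required, at 16.2% in shBicd2 and 15.4% in scramble. The gate summed 1264152 UMIs in shBicd2 and 1239545 UMIs in scramble. Gate barcodes were deeper than the rest, with a median of 1971 against 1443 UMIs in shBicd2 and 1691 against 1471.5 UMIs in scramble. Free RNA in droplets can also supply gate UMIs. Barcodes with a Ptprc, Ptprb or Dcn UMI are kept out of the hepatocyte barcodes by the rule. Of these, 17 of 176 (9.66%) met the gate in shBicd2 and 28 of 190 (14.7%) in scramble. Their medians were 1056.5 UMIs in shBicd2 and 1068 UMIs in scramble. With every barcode thinned to 1000 UMIs, the gate held 9.66% of hepatocyte barcodes against 2.17% of those other barcodes in shBicd2 (777 and 84 shallower ones left out). In scramble the thinned shares were 16.5% (14.8% to 18.2%) against 14.7% (8.47% to 23.1%), with 670 and 88 left out. At equal depth the shares in scramble thus could not be separated. Those other barcodes held Sds at 162 CPM in shBicd2 and 584 CPM in scramble, against 133 and 321 CPM in the rest. Whether they include hepatocytes was not tested, so their shares are not a measured level of free RNA.

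The make-up of the gate differed between the libraries, mostly through Sds, which encodes serine dehydratase. Sds had 923 CPM in gate barcodes and 133 CPM in the rest in shBicd2, and 2150 CPM in gate barcodes and 321 CPM in the rest in scramble. A Sds UMI was present in 408 gate barcodes (74.6%) in shBicd2 and in 589 (93.05%) in scramble. Gate barcodes whose gate UMIs were all from Sds numbered 43 in shBicd2 and 214 in scramble. Without counting Sds, 279 gate barcodes in shBicd2 and 130 in scramble still reached 3 UMIs. Hsd17b13, an enzyme of lipid droplets, went the other way, with 623 CPM in gate barcodes of shBicd2 and 329 CPM in those of scramble. Gls2, the liver glutaminase, had 248 CPM in shBicd2 and 84.7 CPM in scramble, and Hal, which breaks down histidine, had 190 CPM in shBicd2 and 116 CPM in scramble. Cyp2f2, a cytochrome, had 159 CPM in shBicd2 and 195 CPM in scramble.

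**Figure D1:**
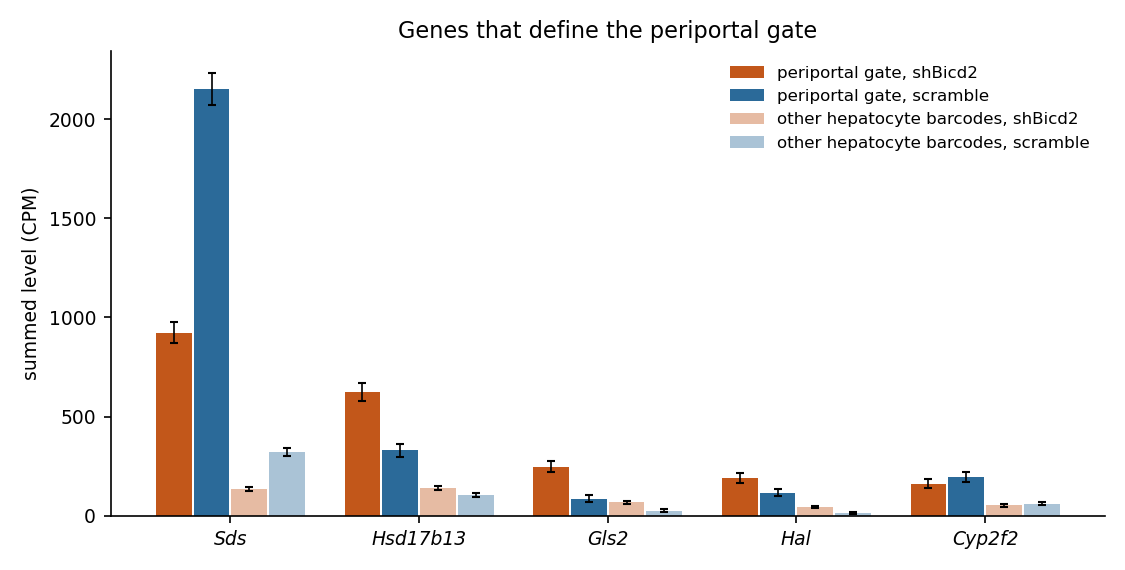
Summed level (CPM, bars, axis from 0) of the 5 genes that define the gate, in gate barcodes and in the other hepatocyte barcodes of each library, with exact Poisson 95% intervals. Sds stands at 923 CPM in the gate of shBicd2 and 2150 CPM in the gate of scramble, and Hsd17b13 at 623 and 329 CPM in the same order.

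At the threshold, 191 gate barcodes in shBicd2 and 162 in scramble had exactly 3 gate UMIs, while 300 and 234 barcodes without pericentral UMIs had 2 and fell just outside. Nrg4, a gene outside the gate, had 1263 CPM at 3 UMIs and 959 CPM at 2 UMIs in shBicd2, and 1130 CPM at 3 UMIs and 1037 CPM at 2 UMIs in scramble. The median gate sum was 4 UMIs in shBicd2 and 5 in scramble, with highest sums of 20 and 22. Most gate barcodes showed few of the gate genes: 87 of 547 in shBicd2 and 233 of 633 in scramble had UMIs from 1 gene, and 9 and 1 had UMIs from all 5.

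Each gate gene was also examined in barcodes gated by the other 4. In shBicd2 all 5 were higher in barcodes gated without them than in the remaining hepatocyte barcodes: Gls2 2.02-fold (1.70 to 2.40), Hal 1.72-fold (1.39 to 2.12), Cyp2f2 1.71-fold (1.38 to 2.11), Sds 1.59-fold (1.41 to 1.79) and Hsd17b13 1.40-fold (1.22 to 1.60). In scramble, Hal was 4.18-fold higher (3.096 to 5.66), Cyp2f2 2.04-fold (1.68 to 2.47) and Gls2 1.96-fold (1.46 to 2.63). Sds, at 1.131-fold (0.997 to 1.28), and Hsd17b13, at 0.893-fold (0.742 to 1.07), had intervals that include 1 there. The 5 genes thus moved together in shBicd2, and in scramble Sds and Hsd17b13 did not track the rest of the set beyond counting error.

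Promoter windows are shown for 3 genes that carry the zonal contrast: Hal, the gate gene with the highest ratio among those held out in scramble, Nrg4, with near-equal ratios in both libraries, and Cyp2e1, a pericentral cytochrome among the lowest. The sequences are RefSeq windows on GRCm38.p6, 5′ to 3′ on the strand of the gene, from 250 bases before a RefSeq start to 50 after. For Nrg4 and Cyp2e1 that start lies inside the gene as GENCODE bounds it. Capitals mark a match to the TCF/LEF motif ATCAAAG, the motif of the factors that act in Wnt signalling, or its reverse complement CTTTGAT. They lie at chr10:93488518-93488817 (plus strand) for Hal, chr9:55283576-55283875 (minus strand) for Nrg4 and chr7:140763569-140763868 (plus strand) for Cyp2e1.
Hal: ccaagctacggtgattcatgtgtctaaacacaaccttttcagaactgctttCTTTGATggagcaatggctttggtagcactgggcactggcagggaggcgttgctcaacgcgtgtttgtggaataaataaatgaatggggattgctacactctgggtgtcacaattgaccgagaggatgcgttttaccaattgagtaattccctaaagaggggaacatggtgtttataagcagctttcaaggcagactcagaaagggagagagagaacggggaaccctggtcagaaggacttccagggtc
Nrg4: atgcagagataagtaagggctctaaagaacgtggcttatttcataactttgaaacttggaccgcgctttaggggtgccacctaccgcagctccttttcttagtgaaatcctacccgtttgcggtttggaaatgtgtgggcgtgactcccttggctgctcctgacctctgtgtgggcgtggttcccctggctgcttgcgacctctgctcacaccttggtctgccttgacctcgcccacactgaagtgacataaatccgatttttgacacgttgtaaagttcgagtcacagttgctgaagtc
Cyp2e1: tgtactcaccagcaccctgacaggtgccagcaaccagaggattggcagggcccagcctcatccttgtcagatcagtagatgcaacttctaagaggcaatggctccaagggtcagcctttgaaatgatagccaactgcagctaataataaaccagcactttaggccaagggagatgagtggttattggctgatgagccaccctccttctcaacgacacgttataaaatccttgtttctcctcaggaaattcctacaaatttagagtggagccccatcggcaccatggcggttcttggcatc
The match in Hal begins 199 bases before the start. Searched on both strands, ATCAAAG was present in 3.73% of 32851 windows, the HNF4A motif CAAAGTCCA in 0.475% and the cyclic AMP response element TGACGTCA, its own reverse complement, in 1.79%. Among the 11 genes named as highest in the gate, 9 had windows and none held any of these letters. Among the 12 lowest, 10 had windows, with CAAAGTCCA in that of Cyp3a11 and TGACGTCA in that of Meg3. A match is letters in a window and says nothing of binding.

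Genes outside the rule were then compared between the gate and the rest within each library. Of 5387 genes with at least 100 UMIs over gate and rest in each library, 25 (0.464%) were at least 1.5-fold higher in the gate of both libraries and 64 (1.19%) at least 1.5-fold lower in both. Of the 89 genes past 1.5-fold higher in shBicd2, 67 were above 1 in scramble, a share of 75.3%, and of the 221 past it in scramble 149 were above 1 in shBicd2, a share of 67.4%. Over all genes tested in a library, 55.5% were above 1 in scramble and 50.9% in shBicd2. Of the 204 genes past 1.5-fold lower in shBicd2, 154 were below 1 in scramble (75.5%), and of the 324 in scramble 229 were below 1 in shBicd2 (70.7%). Over all genes the median log2 ratio was 0.01 in shBicd2 and 0.05 in scramble.

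Nrg4 had the most UMIs among the 11 genes named as highest in both libraries. It encodes neuregulin 4, a secreted ligand of ErbB4, and lies on chromosome 9, 55220222 to 55326844, minus strand. Nrg4 had 1521 CPM in the gate against 698 CPM in the rest in shBicd2, a ratio of 2.18 (2.06 to 2.31). In scramble it had 1259 CPM in the gate against 571 CPM in the rest, a ratio of 2.20 (2.06 to 2.36). A Nrg4 UMI was present in 79.3% of gate barcodes against 43.8% of the rest in shBicd2, and in 69.4% against 37.0% in scramble. Its ratio changed little when Sds was left out of the gate, at 2.13 in shBicd2 and 2.22 in scramble.

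Sdsl, the paralog of Sds, had ratios of 2.38 (2.14 to 2.64) in shBicd2, from 499 CPM in the gate against 210 CPM in the rest, and 2.58 (2.24 to 2.97) in scramble, from 311 against 121 CPM. Sdsl lies on chromosome 5, 120458186 to 120472810, minus strand, and Sds 3715 bases away at 120476526 to 120483932 on the plus strand. Whether reads are shared between these paralogs was not tested, so the value of Sdsl is uncertain. With Sds left out of the gate the ratio of Sdsl was 1.78 in shBicd2 and 0.97 in scramble.

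Fgfr2, a fibroblast growth factor receptor, was 1.97-fold higher (1.49 to 2.58) in shBicd2 and 2.60-fold higher (1.83 to 3.70) in scramble. Bmper, a secreted regulator of bone morphogenetic proteins, had 41.9 CPM in the gate against 20.2 CPM in the rest in shBicd2, and 40.3 against 14.2 CPM in scramble. Hmcn2, a hemicentin of the extracellular matrix, had 60.1 CPM in the gate against 27.4 CPM in the rest in shBicd2, and 39.5 against 17.0 CPM in scramble. Setd7, a lysine methyltransferase, had 55.4 CPM in the gate against 21.7 CPM in the rest in shBicd2, and 70.2 against 30.3 CPM in scramble. The low levels of these 3 genes, from 49 to 87 UMIs in each gate, give wide intervals.

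Apoa4, an apolipoprotein, had 98.1 CPM in the gate against 47.1 CPM in the rest in shBicd2 (ratio 2.08, 1.65 to 2.62) and 42.8 against 15.6 CPM in scramble (2.74, 1.84 to 4.07). Ube2v2, a ubiquitin-conjugating enzyme variant, had 1456 CPM in the gate against 870 CPM in the rest in shBicd2 (1.67, 1.58 to 1.77) and 462 against 246 CPM in scramble (1.88, 1.69 to 2.09). Rhobtb1 (2.07 and 1.73), Lrrfip1 (1.72 and 2.11) and Rasgef1b (1.66 and 1.70 in shBicd2 and scramble) complete the genes named. With Sds left out of the gate, all 11 stayed above 1 in shBicd2, 8 of them at 1.5-fold or more, and 8 of 11 stayed above 1 in scramble, 6 of them at 1.5-fold or more. Those at or below 1 there were Sdsl, Bmper and Hmcn2.

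**Figure D2:**
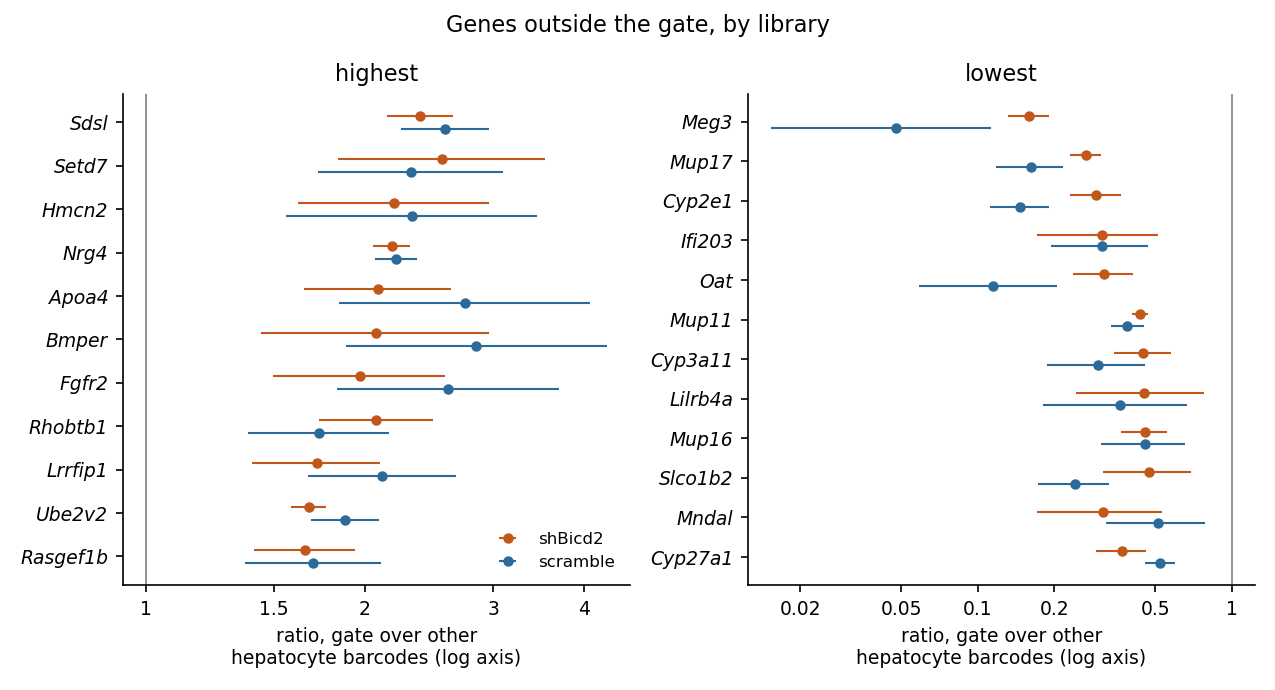
Ratio of summed CPM, gate over other hepatocyte barcodes (log axis), for 11 of the 12 highest and the 12 lowest genes outside the gate rule, in shBicd2 (orange) and scramble (blue), with exact 95% intervals of counting error. Nrg4 lies at 2.18 in shBicd2 and 2.20 in scramble, and Cyp2e1 at 0.292 and 0.147 in the same order.

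Cyp2e1, which oxidises ethanol and paracetamol (chromosome 7, 140763739 to 140774987, plus strand), had 65.7 CPM in the gate against 225 CPM in the rest in shBicd2, a ratio of 0.292 (0.230 to 0.365). In scramble it had 47.6 CPM in the gate against 324 CPM in the rest, a ratio of 0.147 (0.111 to 0.191). With Sds left out of the gate, the ratio of Cyp2e1 was 0.289 in shBicd2 and 0.286 in scramble, nearer to 1 in scramble than with Sds. Oat, ornithine aminotransferase, had 48.3 CPM in the gate against 154 CPM in the rest in shBicd2 and 9.68 against 83.9 CPM in scramble. Cyp3a11, a drug-oxidising cytochrome, was at 0.448 of the rest (0.344 to 0.576) in shBicd2 and 0.298 (0.187 to 0.455) in scramble. The 5 pericentral genes that the gate required at 0 are no part of these values, although the rule that sets them to 0 belongs to the same contrast.

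Cyp27a1, the sterol 27-hydroxylase of bile acid synthesis, had 68.0 CPM in the gate against 185 CPM in the rest in shBicd2 (0.368, 0.291 to 0.461) and 206 against 393 CPM in scramble (0.523, 0.456 to 0.599). Slco1b2, an uptake transporter for organic anions, had 24.5 CPM in the gate against 52.0 CPM in the rest in shBicd2 and 34.7 against 144 CPM in scramble. Mup17, a major urinary protein, had 176 CPM in the gate against 659 CPM in the rest in shBicd2 (0.266, 0.231 to 0.305) and 37.9 against 235 CPM in scramble (0.161, 0.118 to 0.217). Mup11 and Mup16 were lower too, at 0.435 and 0.455 in shBicd2 and at 0.389 and 0.454 in scramble. Major urinary protein genes are near-identical copies, so the split of reads between them is uncertain. The same holds for Ifi203 (0.307 in shBicd2 and 0.308 in scramble) and Mndal (0.312 and 0.512), interferon-inducible genes of 1 family. Lilrb4a, an inhibitory receptor of white blood cells, had 11.9 CPM in the gate against 26.4 CPM in the rest in shBicd2 and 9.68 against 26.7 CPM in scramble.

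The noncoding RNA Meg3 had the lowest ratio, 0.159 (0.131 to 0.191) in shBicd2 and 0.0476 (0.0153 to 0.112) in scramble. Its 122 gate UMIs in shBicd2 lay in 34 barcodes, and 1 barcode held 76 of them, or 62.3%. In scramble the gate held 5 Meg3 UMIs in 5 barcodes. The level of Meg3 in the gate of shBicd2, 96.5 CPM, is thus mostly that of 1 barcode, and counting intervals do not cover such clumping.

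Of 22 periportal genes outside the gate, 18 reached 100 UMIs in shBicd2 and 14 of them were higher in the gate, against 50.9% of all genes tested. In scramble 15 reached it and all 15 were higher, against 55.5% of all genes. In both libraries 12 of 15 were higher, against 31% of all genes. Past 1.5-fold higher were 4 of 18 in shBicd2, against 2.17% of all genes, and 8 of 15 in scramble, against 4.42% of all genes. The median log2 ratio was 0.37 in shBicd2 and 0.60 in scramble. Leaving out Sds as a gate gene lowered it to 0.04 in shBicd2 and 0.32 in scramble.

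Among urea cycle genes, 6 of 7 in shBicd2 and 6 of 6 in scramble were higher in the gate, against 50.9% and 55.5% of all genes. Their median log2 ratios were 0.20 in shBicd2 and 0.45 in scramble. Arg1, arginase (chromosome 10, 24915221 to 24927484, minus strand), had 1252 CPM in the gate against 871 CPM in the rest in shBicd2 (1.44, 1.35 to 1.53) and 824 against 453 CPM in scramble (1.82, 1.68 to 1.97). Cps1, carbamoyl phosphate synthetase, had 727 CPM in the gate against 534 CPM in the rest in shBicd2 (1.36, 1.26 to 1.47) and 291 against 163 CPM in scramble (1.79, 1.56 to 2.04). Ass1 (1.07 and 1.37), Asl (1.12 and 1.17) and Slc25a15 (1.15 and 1.37 in shBicd2 and scramble) differed less. Otc was the member on the other side in shBicd2, at 0.732 (0.433 to 1.19) there and 1.45 (0.859 to 2.40) in scramble. These differences leaned on Sds: with it left out of the gate, the list medians were -0.10 in shBicd2 and -0.00 in scramble, and Arg1 stood at 1.35 in shBicd2 but 0.903 in scramble.

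Pck1, the enzyme that commits to gluconeogenesis, had 1249 CPM in the gate against 968 CPM in the rest in shBicd2 (1.29, 1.22 to 1.37) and 2135 against 1411 CPM in scramble (1.51, 1.44 to 1.59). Left without Sds as a gate gene, Pck1 stood at 1.03 in shBicd2 and 0.735 in scramble. Igf1, insulin-like growth factor 1, was 1.32-fold higher (1.17 to 1.48) in shBicd2 and 1.82-fold higher (1.66 to 1.98) in scramble. Uroc1, which acts after Hal in histidine breakdown, was 1.69-fold higher (1.40 to 2.03) in shBicd2 and 1.39-fold higher (1.06 to 1.81) in scramble. Gldc, of the glycine cleavage system, was 2.35-fold higher (1.80 to 3.06) in shBicd2 and 1.23-fold (0.757 to 1.94) in scramble. Albumin, Alb, had ratios on both sides of 1, with 0.844 (0.802 to 0.888) in shBicd2 and 1.14 (1.07 to 1.21) in scramble.

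Of 24 pericentral genes outside the gate, 12 reached 100 UMIs in shBicd2 and 11 of them were at least 1.5-fold lower in the gate, against 4.7% of all genes tested. In scramble 9 reached it and all 9 were at least 1.5-fold lower, against 6.19% of all genes. Median log2 ratios were -1.11 in shBicd2 and -1.07 in scramble, the lowest of the zonal lists. Without the pericentral condition, which bears on this contrast, the medians were -0.44 in shBicd2 and -1.06 in scramble. In scramble the median was -0.52 without Sds and -2.77 against pericentral barcodes alone. Ahr, the aryl hydrocarbon receptor, was the exception in shBicd2, at 1.01 (0.833 to 1.22) there and 0.586 (0.486 to 0.703) in scramble. The midlobular genes Hamp, the iron hormone hepcidin, and Mup3 lay nearer to 1: Hamp had 1231 CPM in the gate against 1580 CPM in the rest in shBicd2 (0.779, 0.737 to 0.824) and 2064 against 2144 CPM in scramble (0.963, 0.920 to 1.01).

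Levels varied with the gate sum, a value the rule used, so the following is a description. Among barcodes without a pericentral UMI, Nrg4 had 618, 851, 959, 1263, 1484, 1723 and 1460 CPM in shBicd2 at gate sums of 0, 1, 2, 3, 4, 5 to 9 and 10 or more. In scramble it had 413, 736, 1037, 1130, 1467, 1249 and 1228 CPM over the same sums. The level of Nrg4 thus climbed up to a sum of 4 in scramble and 5 to 9 in shBicd2 and was lower at the highest sums. Cyp2e1 ran the other way, with 223 CPM at a sum of 0 and 39.9 CPM at 10 or more in shBicd2, and 435 CPM at 0 and 34.3 CPM at 10 or more in scramble. Mup17 had 753 CPM at 0 and 176 CPM at 10 or more in shBicd2, and 237 CPM at 0 and 5.71 CPM at 10 or more in scramble. Arg1 had 901 CPM at 0 and 1867 CPM at 10 or more in shBicd2, and 544 CPM at 0 and 1056 CPM at 10 or more in scramble. Depth moved with the gate sum, with medians of 1228 UMIs at 0 and 3036 UMIs at 10 or more in shBicd2 and 1254 and 2484 UMIs in scramble, and its part in these gradients was not tested within bins.

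**Figure D3:**
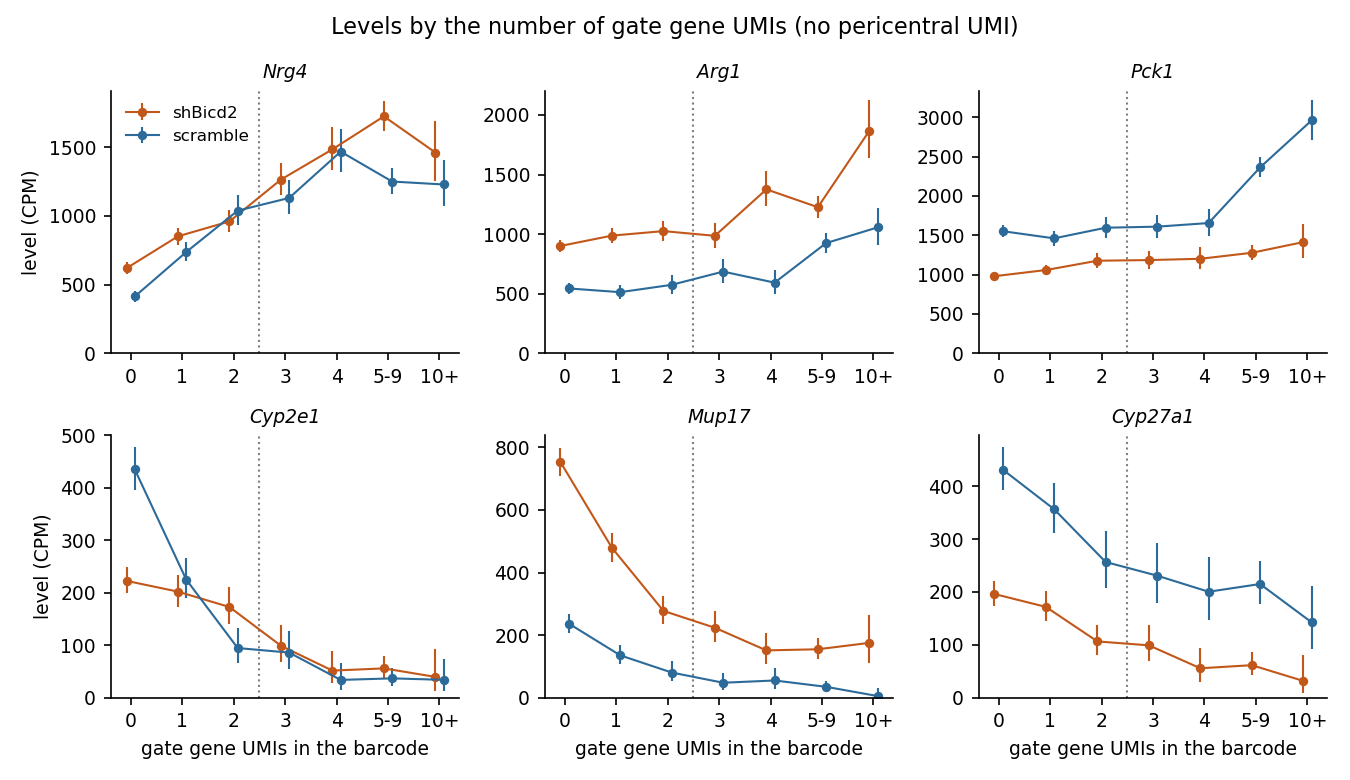
Level (CPM) of 6 genes in barcodes without pericentral UMIs, by the number of gate gene UMIs in the barcode, in shBicd2 (orange) and scramble (blue), with exact Poisson 95% intervals. The dotted line marks the gate minimum of 3. Nrg4 climbs and Cyp2e1 declines across it, from 223 to 39.9 CPM in shBicd2 and from 435 to 34.3 CPM in scramble.

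The gate also differed from barcodes with the opposite marking. In barcodes with a pericentral UMI and under 3 gate UMIs, Cyp2e1 had 269 CPM in shBicd2 and 422 CPM in scramble, and Nrg4 had 416 CPM in shBicd2 and 308 CPM in scramble. Barcodes that reached 3 gate UMIs and also held a pericentral UMI, 85 in shBicd2 and 136 in scramble, had Nrg4 at 1016 and 1015 CPM, between the gate and the pericentral barcodes. Their Cyp2e1 was at 277 CPM in shBicd2, near the pericentral level, and at 129 CPM in scramble, below it.

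All 19 measured interferon gamma response genes were lower in the gate than in the rest in scramble, with a median log2 ratio of -0.46, whereas in shBicd2 9 of 19 were higher and the median was -0.06. Over all genes 55.5% were higher in scramble and 50.9% in shBicd2. Irf1, an interferon-induced transcription factor, had 1157 CPM in the gate against 1325 CPM in the rest in shBicd2 (0.874, 0.824 to 0.926) and 484 against 974 CPM in scramble (0.497, 0.455 to 0.542). Cxcl10, a chemokine that draws T cells, had 1479 CPM in the gate against 1774 CPM in the rest in shBicd2 and 1191 against 2399 CPM in scramble. Cxcl9, a chemokine of the same receptor, had 767 CPM in the gate against 1174 CPM in the rest in shBicd2 and 618 against 1266 CPM in scramble.

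NF-kB response genes had a median of -0.09 in shBicd2 and -0.57 in scramble. In scramble 2 of 16 were higher in the gate, against 55.5% of all genes. Type I interferon response genes had medians of 0.03 in shBicd2 and -0.57 in scramble, and immediate early genes 0.06 and -0.48. Cxcl2, a neutrophil chemokine, had 1008 CPM in the gate against 1217 CPM in the rest in shBicd2 and 340 against 681 CPM in scramble. With Sds left out of the gate, the medians in scramble were 0.04 for interferon gamma, -0.04 for NF-kB, 0.12 for type I interferon and 0.42 for immediate early genes.

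Genes of sterol and fatty acid synthesis were higher in the gate of scramble, in 15 of 20 with a median log2 ratio of 0.68, while 11 of 24 were higher in shBicd2 with a median of -0.03. Hmgcs1, of the mevalonate pathway, had 281 CPM in the gate against 342 CPM in the rest in shBicd2 (0.822, 0.730 to 0.924) and 108 against 50.5 CPM in scramble (2.14, 1.70 to 2.69). Msmo1, of the same pathway, was at 1.08 (0.972 to 1.19) in shBicd2 and 1.63 (1.36 to 1.95) in scramble. Leaving out Sds as a gate gene took the median in scramble to 0.07. Amino acid breakdown genes were higher in 19 of 26 in shBicd2 (median 0.25) and in 11 of 21 in scramble (median 0.02), where the count is near the 55.5% of all genes. The 11 of 24 sterol genes in shBicd2 are likewise near the 50.9% of all genes. Bile acid genes were higher in 2 of 11 in shBicd2 (median -0.17) and in 0 of 11 in scramble (median -0.57), against 50.9% and 55.5% of all genes. At least 1.5-fold lower were 2 of 11 in shBicd2 and 5 of 11 in scramble, against 4.7% and 6.19% of all genes.

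Mitochondrially encoded transcripts were lower in the gate in both libraries for all 11 measured, against 24.9% of all genes, with medians of -1.03 in shBicd2 and -0.30 in scramble. The direction turned in scramble, to medians of 0.77 with Sds left out of the gate, 0.12 with barcodes thinned and 0.09 with at least 2 gate genes required. In shBicd2 the median stayed negative in every setting, but its size varied. It was -0.26 without the pericentral condition, which brings 85 further barcodes into that gate. With barcodes thinned it was -0.51, and with at most 1 UMI of other-cell markers -0.66. As reported, the gate summed 4732 CPM of mitochondrially encoded transcripts against 9713 CPM in the rest in shBicd2, and 5947 against 7187 CPM in scramble. Globin and other erythroid markers were lower as well, at 243 CPM in the gate against 766 CPM in the rest in shBicd2 and 158 against 356 CPM in scramble. Acute phase genes, which the liver makes in inflammation, summed 48116 CPM in the gate against 53879 CPM in the rest in shBicd2 and 58110 against 58681 CPM in scramble. Of 17 acute phase genes, 2 were higher in the gate in shBicd2 and 7 in scramble, against 50.9% and 55.5% of all genes. Their median log2 ratios were -0.17 in shBicd2 and -0.04 in scramble.

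**Figure D4:**
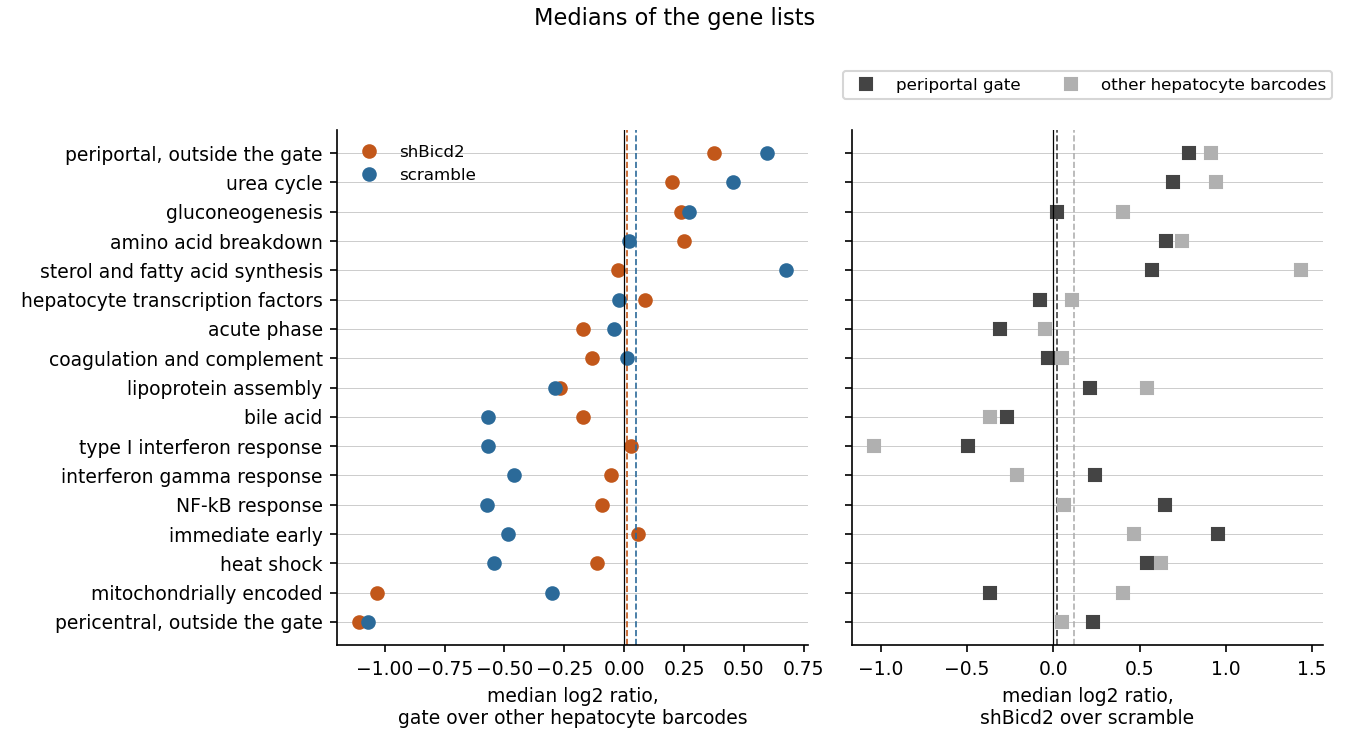
Median log2 ratio of each gene list: gate over other hepatocyte barcodes in shBicd2 and scramble (left), and shBicd2 over scramble in the gate and in the other hepatocyte barcodes (right). Dashed lines give the medians of all genes tested. Pericentral genes lie at -1.11 in shBicd2 and -1.07 in scramble on the left. On the right their value in the gate rests on 2 genes.

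Markers of other cells moved with the gate in several lists. The 12 macrophage markers summed 40.3 CPM in the gate against 79.4 CPM in the rest in shBicd2, and 15.3 against 31.8 CPM in scramble. The 10 B cell markers summed 32.4 against 71.0 CPM in shBicd2 and 31.5 against 49.1 CPM in scramble. The 13 T and NK cell markers summed 9.49 against 19.2 CPM in shBicd2 and 6.45 against 6.24 CPM in scramble. Macrophage and B cell markers were thus lower in the gate of both libraries. The 11 endothelial markers summed 68.8 against 74.5 CPM in shBicd2 and 24.2 against 44.8 CPM in scramble, and the 11 stellate and fibroblast markers 38.8 against 50.6 CPM in shBicd2 and 25.01 against 38.9 CPM in scramble. The 8 cholangiocyte markers were higher in the gate, at 15.0 against 11.1 CPM in shBicd2 and 23.4 against 7.09 CPM in scramble. At 0 in both gates were Vsig4, Trbc2, Nkg7, Cd79b, Clec4g, Kdr, Lrat, Col1a1, Krt7, Krt19 and Epcam, among others. The 11 neutrophil markers, whose list includes Lcn2, which hepatocytes make in inflammation, summed 2205 CPM in the gate against 2511 CPM in the rest in shBicd2, and 1572 against 1515 CPM in scramble. The part of these markers in the differences of inflammatory and other genes between gate and rest was not tested.

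Differences between the libraries were then read inside the gate. Of 3847 genes with at least 100 UMIs over both gates, 695 (18.1%) were at least 1.5-fold higher and 574 (14.9%) at least 1.5-fold lower in shBicd2 than in scramble, and with TMM scaling the counts were 563 and 740. In the rest, 1471 of 7300 genes (20.2%) were that much higher and 671 (9.19%) lower, and 59% of genes were above 1. The median log2 ratio over all genes was 0.02 in the gate and 0.12 in the rest. Since the make-up of the gate through Sds differs between the libraries, differences in cell content and in RNA per cell cannot be told apart here.

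EGFP had 1244 UMIs, or 984 CPM, in gate barcodes of shBicd2 and 62 UMIs, or 50.02 CPM, in those of scramble, a ratio of 19.7 (15.2 to 25.8), and the ratio in the rest was 11.4. The heat shock gene Hspa1a had 160 CPM in the gate of shBicd2 and 12.9 CPM in that of scramble, a ratio of 12.4 (7.44 to 22.1), against 3.47 in the rest. Its neighbour copy Hspa1b had 723 CPM in shBicd2 and 95.2 CPM in scramble, a ratio of 7.59 (6.26 to 9.28), against 2.56 in the rest, and reads of the 2 copies may be shared. Srxn1, sulfiredoxin, which repairs oxidised peroxiredoxins, was 9.02-fold higher (4.69 to 19.4). Adm, the peptide hormone adrenomedullin, was 7.73-fold higher (6.03 to 10.0), Hhex, a homeobox factor of liver development, 7.77-fold (4.44 to 14.7), Orm3, an orosomucoid, 8.07-fold (4.52 to 15.7) and Cyp2d22, a cytochrome, 7.66-fold (4.54 to 13.8). Ccn1, a matrix protein of growth signalling, was 7.73-fold higher (5.75 to 10.6), but 1 barcode held 18 of its 50 UMIs in scramble. Hhex had 14 UMIs in the gate of scramble, 5 of them in 1 barcode, and Hspa1a had 16, 4 of them in 1 barcode. Cyp2d22 had 16 UMIs there, Orm3 13 and Srxn1 10, so these ratios too rest on few scramble UMIs. Meg3, at 23.9-fold (9.98 to 75), rests on 5 UMIs in scramble and on the barcode named above in shBicd2. All 10 were higher in the rest too.

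The 10 lowest ratios belonged to Nrp1, Cyp2c70, Cyp21a1, Socs2, D10Wsu102e, Upp2, Onecut1, Palmd, Col5a3 and Ube2s, and all 10 were lower in the rest as well. Cyp2c70, which makes muricholic acids in mice, had 122 CPM in the gate of shBicd2 and 965 CPM in that of scramble, a ratio of 0.126 (0.106 to 0.149), against 0.141 in the rest. Nrp1, neuropilin 1, a co-receptor of vascular endothelial growth factor, had 21.4 CPM in shBicd2 and 235 CPM in scramble, a ratio of 0.0910 (0.0589 to 0.135). Socs2, an inhibitor of growth hormone signalling, had 79.9 CPM in shBicd2 and 399 CPM in scramble. Onecut1, a hepatocyte transcription factor, had 23.7 CPM in shBicd2 and 106 CPM in scramble.

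**Figure D5:**
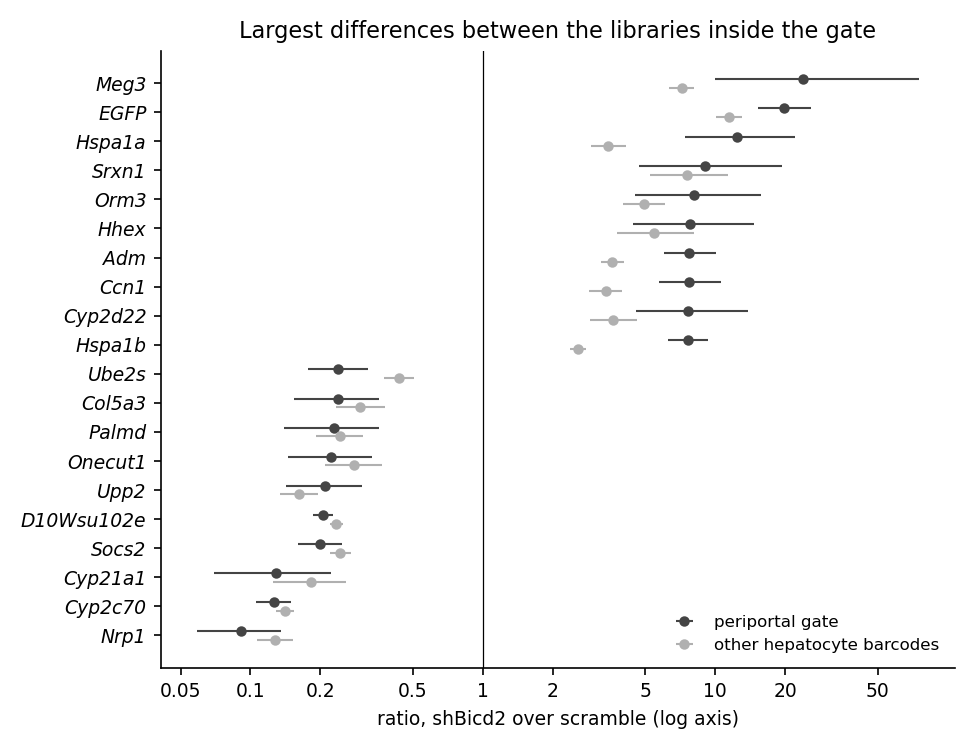
Ratio of summed CPM, shBicd2 over scramble (log axis), for the 10 highest and 10 lowest genes in the gate, shown in the gate (dark) and in the other hepatocyte barcodes (light), with exact 95% intervals of counting error. All 20 lie on the same side of 1 in both, and Hspa1b stands at 7.59 in the gate and 2.56 in the rest.

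Periportal enzymes were among the genes higher in shBicd2. Of 15 periportal genes outside the gate 12 were higher in the gate of shBicd2 than in that of scramble, with a median log2 ratio of 0.79 in the gate and 0.92 in the rest, against 51.8% of all genes above 1 in the gate. The median in the gate was 0.42 without Sds, 0.41 with at least 5 gate UMIs and 0.06 with at most 1 UMI of other-cell markers, a setting that leaves 64 gate barcodes in shBicd2 and 157 in scramble. The urea cycle list was higher in 6 of 6 members in the gate, at a median of 0.69. In the rest it was higher in 7 of 7 members, at a median of 0.94, against 59% of all genes. This difference was thus not particular to the gate. Asl, argininosuccinate lyase, had 602 CPM in the gate of shBicd2 and 155 CPM in that of scramble, a ratio of 3.89 (3.31 to 4.58). Ftcd, of histidine breakdown, had 426 CPM in shBicd2 and 74.2 CPM in scramble, a ratio of 5.74 (4.598 to 7.25). Pck1 and Igf1 lay on the other side, with ratios of 0.585 (0.549 to 0.623) and 0.4996 (0.444 to 0.562).

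Stress and injury genes were also higher in the gate of shBicd2. Of immediate early genes 13 of 13 lay above 1 in the gate and 12 of 13 in the rest. Their median log2 ratios were 0.96 in the gate and 0.47 in the rest. Over all genes 51.8% lay above 1 in the gate and 59% in the rest. All 8 NRF2 and metallothionein genes lay above 1 in the gate and 9 of 9 in the rest, with medians of 0.93 and 0.57. All 6 lipid droplet genes were higher in the gate and 8 of 8 in the rest, with medians of 1.87 and 1.48. Plin2, a coat protein of lipid droplets, had 533 CPM in the gate of shBicd2 and 80.7 CPM in that of scramble, a ratio of 6.61 (5.35 to 8.24). NF-kB genes were higher in 13 of 15 in the gate and 11 of 17 in the rest, with medians of 0.64 and 0.06. Type I interferon genes were higher in 1 of 13 in the gate and 0 of 17 in the rest, with medians of -0.49 and -1.04. The immediate early and NF-kB medians in the gate were 0.35 and 0.23 without barcodes that held an EGFP UMI.

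EGFP marked a subset of the gate. An EGFP UMI was found in 170 gate barcodes (31.1%, 27.2% to 35.1%) of shBicd2 and in 31 (4.90%, 3.35% to 6.88%) of scramble, against 27.7% and 6.61% of the rest. EGFP barcodes of the gate were deeper than gate barcodes without EGFP, with medians of 2874.5 against 1634 UMIs in shBicd2 and 2602 against 1665 UMIs in scramble. Their immediate early genes summed 19005 CPM against 6503 CPM without EGFP in shBicd2 and 16561 against 5421 CPM in scramble. Interferon gamma response genes summed 13390 against 9549 CPM in shBicd2 and 21125 against 9063 CPM in scramble. Urea cycle genes ran the other way, with 1919 CPM in EGFP barcodes against 4172 CPM without EGFP in shBicd2 and 821 against 1762 CPM in scramble. Barcodes with EGFP thus had more response gene RNA and less urea cycle RNA within the gate of each library, and depth moved with EGFP, whose part was not tested.

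Gate barcodes were also split by Sds. Since Sds belongs to the rule and barcodes without it had to pass through the other 4 genes, these values are a description. In scramble the 44 gate barcodes without a Sds UMI had Arg1 at 264 CPM against 875 CPM in the 589 with one, and Pck1 at 801 against 2255 CPM. Their interferon gamma response genes summed 18413 against 9242 CPM and their immediate early genes 13643 against 5623 CPM. In shBicd2 the 139 gate barcodes without Sds had Arg1 at 1113 against 1303 CPM, Pck1 at 918 against 1370 CPM and interferon gamma response genes at 12139 against 10843 CPM, the same order with smaller gaps. Nrg4 had 1696 CPM without a Sds UMI against 1457 CPM with one in shBicd2 and 1339 against 1252 CPM in scramble.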

How the data were processed

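Libraries used 10x 3' chemistry, version 3.1 (stated in the labels' protocols). For 32287 features the authors deposited raw UMI counts in each barcode, without normalization. Cell Ranger 6.1.2 is named per the file headers, whereas Cell Ranger 6.0.1, Seurat 4.0.3 and mm10 are listed per the submitters' processing notes. Whether doublets were removed, introns counted or how tissue was dissociated is not stated. Each library took its group from its label.

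CPM are the summed UMIs of a gene over those of its barcode class (Python 3.11.15, numpy 2.4.6, scipy 1.17.1, pandas 2.3.3). Intervals at 95% are exact Poisson for levels, exact binomial (Clopper-Pearson) for shares and exact conditional binomial for ratios. They cover counting error only, were checked on simulated counts, and treat UMIs as independent. List medians use log2 ratios with 0.5 count added. Genes needed 100 UMIs, and no p-value was computed because barcodes are not replicates. Doublets were kept, and Scrublet (scanpy 1.11.5, 0.8% of barcodes per 1000) removed 74 and 63 barcodes as an alternative.

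Genes named are those of the rule, the 12 highest and 12 lowest ratios, gate over rest, with interval bounds past 1.25-fold the same way in both libraries, and the 10 highest and 10 lowest, shBicd2 over scramble, with 50 CPM or more on the higher side and a bound past 1.5-fold. Members of the zonal and urea cycle lists and up to 4 members of each other list with the most UMIs were also eligible. Clone-named, ribosomal, hemoglobin and receptor segment genes were left out of the rankings, as were mitochondrial genes. Of the 12 highest, 1 gene is not reported here. The members, lists and tests were chosen with earlier results of these data known. Coordinates are from GENCODE on GRCm38, matched by gene ID for 32158 of 32287 features.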

Additional observations from a re-analysis of the deposited data

Results flagged for a closer look

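Of 5387 genes tested in both libraries, 5 stood at least 1.5-fold apart between the gate and the rest in opposite directions, 4 of them higher in scramble and 1 higher in shBicd2. For Psmd14, Slc17a9 and Ogfrl1 the intervals also excluded 1 in both libraries, and this difference between libraries was not tested. The intervals are those of single genes and are not adjusted for the 5387 genes searched. How many such genes counting error alone would give was not tested. Psmd14, a subunit of the proteasome, had 13.4 CPM in the gate against 28.4 CPM in the rest in shBicd2, a ratio of 0.474 (0.267 to 0.793), and 31.5 against 18.4 CPM in scramble, a ratio of 1.71 (1.12 to 2.58). Slc17a9, a vesicular nucleotide transporter, had 23.7 CPM in the gate against 43.7 CPM in the rest in shBicd2, a ratio of 0.544 (0.356 to 0.804), and 30.7 against 17.9 CPM in scramble, a ratio of 1.72 (1.12 to 2.61). Ogfrl1 had 15.8 CPM in the gate against 27.9 CPM in the rest in shBicd2, a ratio of 0.568 (0.334 to 0.919), and 33.1 against 21.8 CPM in scramble, a ratio of 1.51 (1.01 to 2.24). Each gate held from 17 to 41 UMIs of these genes.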

How the results depend on the processing

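No paired analysis was possible because each group holds 1 library and the results come from no test. Apart from the counts and shares below, 2823 values of genes and lists were recomputed over 20 settings, 2 of them chosen after seeing the data: 2397 stayed within their counting interval, 416 moved out of it, and 10 changed sign from a reported value at least 1.5-fold from 1. Counting values nearer to 1 as well, there were 119 changes of sign, in 48 of 161 results. For a list, the counting interval was the median of its members' bounds and not an interval of the median itself. Pericentral genes in scramble, at -1.07 as reported and -0.52 without Sds, counted as within it. The share of barcodes in the gate, shBicd2 first and scramble second, was 29.8% and 33.3% with at least 2 UMIs, 8.32% and 12.7% with at least 5, 9.66% and 16.5% thinned to 1000 UMIs, 22.3% and 29.6% without the pericentral condition, 16.4% and 21.5% with at most 1 UMI of other-cell markers, and, a setting chosen after seeing the data, 16.2% and 15.4% with UMIs from at least 2 gate genes. Without Cyp2f2 the share was 17.3% and 22.6%, without Hsd17b13 12.4% and 20.2%, and without Sds 9.83% and 4.998%, and both this and the setting with at least 2 gate genes turn the order of the libraries. In shBicd2 it was 17.2% without Hal and 16.9% without Gls2. The 25 genes higher in the gate became 44 with at least 5 UMIs or against pericentral barcodes, 82 thinned, 108 without Hsd17b13, 81 with 30 UMIs per gene and 8 with at most 1 other-cell UMI. The 64 lower genes became 126 thinned, 39 without the pericentral condition, 149 without Sds, 159 without Hsd17b13, 211 with 30 UMIs per gene and 22 with at most 1 other-cell UMI. The 695 genes higher in shBicd2 became 427 with at least 5 UMIs, 291 thinned, 367 without Sds, 1625 with 30 UMIs per gene and 84 with at most 1 other-cell UMI, and the 574 lower ones 318, 192, 1139 and 99 thinned, without Sds, with 30 UMIs per gene and with at most 1 other-cell UMI. When 5 genes that hepatocytes or free RNA can supply were dropped from the other-cell markers, a setting chosen after seeing the data, these 4 counts were 23, 50, 526 and 472. Without Sds the log2 ratios in scramble changed sign for Arg1 (-0.15), Pck1 (-0.44), Sdsl (-0.043), Bmper (-0.28), Hmcn2 (-0.15), Aldh1a1 (0.053), Cyp2c50 (0.52) and Gstm1 (0.037), and thinned they did in shBicd2 for Agxt (0.16) and Cyp2c29 (0.094). The gate without Sds has 279 and 130 barcodes, and apart from such smaller gates the cause was not tested.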

Other observations

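Among gene groups not described above, the keratins of hepatocytes separated the libraries inside the gate more than the gate from the rest. Krt8 had 1289 CPM in the gate against 1030 CPM in the rest in shBicd2, and 246 against 217 CPM in scramble, and its ratio of shBicd2 over scramble in the gate was 5.24 (4.63 to 5.94). Krt18 had 1264 CPM in the gate of shBicd2 and 303 CPM in that of scramble. The cholangiocyte keratins Krt7 and Krt19 were at 0 in both gates. Creb3l3, a fasting-induced factor, had 564 CPM in the gate of shBicd2 and 141 CPM in that of scramble, with gate over rest ratios of 0.985 in shBicd2 and 0.970 in scramble. Vegfa, vascular endothelial growth factor, had 2304 CPM in the gate against 1689 CPM in the rest in shBicd2 (1.36, 1.31 to 1.42) and 1682 against 1636 CPM in scramble (1.03, 0.977 to 1.08). Malat1, a nuclear noncoding RNA, was slightly higher in the gate in both libraries, at 1.18 (1.16 to 1.19) in shBicd2 and 1.12 (1.11 to 1.1301) in scramble.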
